A study of Mus musculus with 6 samples.

Results

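The chondrogenic genes described here are 10 genes known from cartilage, bone and tendon: Sox9, Runx2, Acan, Comp, Chad, Cilp, Prg4, Hapln1, Scx and Matn2. They were taken by symbol from the platform's probe annotation, and 9 of the 10 had a probe set, out of 19505 genes in all. Runx2, the transcription factor of bone-forming cells, had no probe set named in the annotation used here and is not analysed. No member had more than 1 probe set.

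The series holds 6 Affymetrix arrays of cultured mouse heart cells (C57BL/6N, 15 to 16 weeks old), each from a culture of 48 h. Cardiac fibroblasts (CF) and cardiomyocytes (CM) were each exposed to the secretome of Ccrl2+ macrophages, to the secretome of Ccrl2- macrophages, or to phosphate-buffered saline (PBS), which the titles call sham. The macrophages of both kinds had been sorted from the mixed hearts of 6 wild-type mice. These mice had undergone transverse aortic constriction (TAC), an operation that overloads the left ventricle, 1 week before. The protocols speak of co-culture with the macrophages, whereas the source labels name the secretome and set the groups here. The comparisons address how products of each macrophage population act on each heart cell type. There was 1 array per group, so the differences between treatments within a cell type have no test and no replicate check. The CF arrays could be set against the CM arrays over the 3 treatments. In such cultures fewer cells of a type and less RNA per cell cannot be told apart.

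Cartilage forms when mesenchymal cells switch on Sox9, a transcription factor that activates genes of the cartilage matrix such as Acan, Hapln1 and the cartilage collagens. Runx2 directs the later steps towards bone, and Scx, scleraxis, marks tendon and ligament progenitors. In the heart Sox9 acts in the developing valves, and fibroblasts of the injured heart can express cartilage and bone genes.

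Values are log2 probe set summaries, so that a difference of 1 is 2-fold, and levels of different genes are not compared with each other because each probe set has its own brightness. A gene was counted in a comparison when its higher value reached 6.55, the median of all named values, called the floor here, and its deposited values differed by 2-fold. Where the lower value lay under the floor, the distance of the higher value from the floor is a bound, and counts that fall below 2-fold by this bound are named. Such a gene entered the comparison through its high side alone, so its part in a count or median is no independent support. The 5222 negative control probe sets give a second mark: their 95th percentile lay between 10.67 and 10.74 on the CF arrays and between 10.2 and 10.25 on the CM arrays. Array medians over named probe sets ranged from 6.5 to 6.59. The marker genes of fibroblasts and cardiomyocytes followed the labels. All 5 fibroblast markers on the array (Col1a1, Col3a1, Dcn, Tcf21 and Lum) were at least 2-fold higher in CF than in CM in PBS, and all 5 cardiomyocyte markers (Myh6, Tnnt2, Tnni3, Actn2 and Ryr2) at least 2-fold lower. The 4 endothelial markers (Pecam1, Kdr, Cdh5 and Tie1) were also at least 2-fold lower in CF than in CM in PBS. Their median was 7.51 in CF and 13.3 in CM. On the CM array in PBS the fibroblast marker Dcn lay at 15.34 and the macrophage marker C1qa at 11.54. A gap between CF and CM is thus one between mixed cultures, and which cells carried a member was not tested. Of the glial markers Sox10, S100b and Gfra3, none reached the floor on any array.

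The cartilage programme was measured in part only. In fibroblasts Sox9 and Matn2 were well above the floor, Acan lay just above it, and the other 6 members on the array lay below it on all 3 CF arrays. Sox9 was 4.08-fold higher with the Ccrl2+ secretome than in PBS and 7.52-fold higher than with the Ccrl2- secretome. Matn2 was 2.55-fold higher with the Ccrl2+ secretome than in PBS. In cardiomyocytes no member differed by 2-fold between any pair of arrays, and Hapln1 was the member that was higher in CM than in CF. Comp, Chad, Cilp, Prg4 and Scx stayed below the floor on all 6 arrays, between 2.83 and 5.75. For comparison, 10779 of all 19505 genes passed the floor on at least 1 array.

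**Figure D1:**
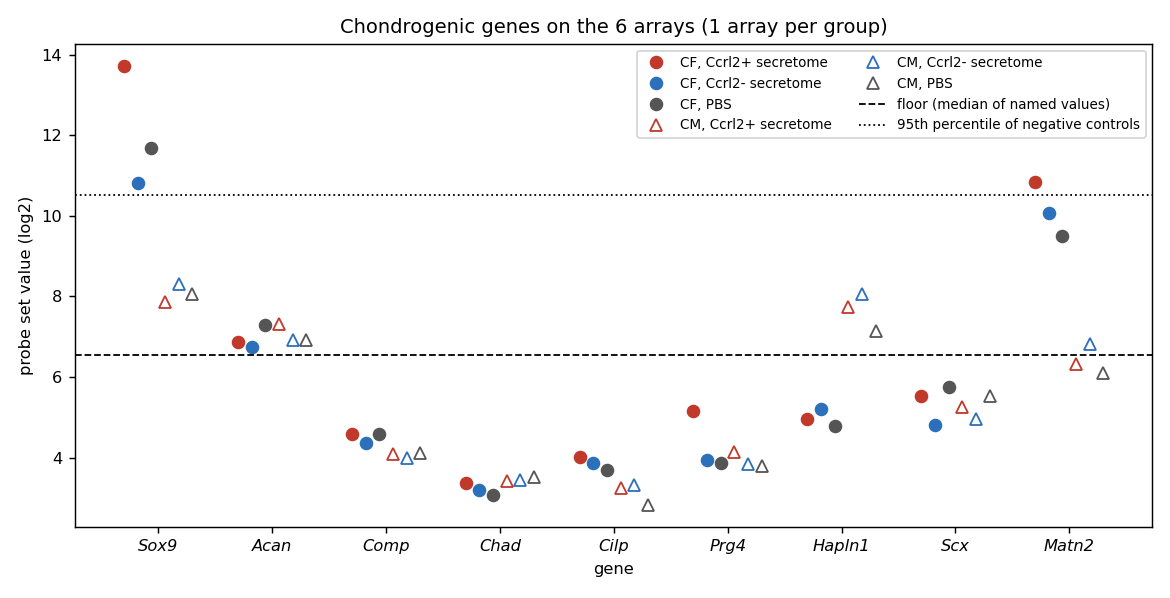
Log2 probe set values of the 9 members (horizontal axis) on the 6 arrays, 1 point per array; filled circles are CF, open triangles CM, and colours give the treatment. The dashed line is the floor of 6.55 and the dotted line the 95th percentile of all negative control values, 10.51; only Sox9 and Matn2 have points above the dotted line, all in CF, and Comp, Chad, Cilp, Prg4 and Scx lie under the floor throughout.

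Promoter windows from RefSeq (GRCm38.p6) were held for 5 of the 10 genes: Acan, Cilp, Chad, Hapln1 and Runx2. Those of Acan and Hapln1 are printed because both genes are targets of Sox9 in cartilage, and their levels can be set beside that of Sox9 in these cultures. Each window is the 250 bases before the annotated start, 5′ to 3′ on the gene's own strand, which is the plus strand for both. The Acan window is chr7:79052976-79053225 and the Hapln1 window chr13:89540386-89540635.
Acan: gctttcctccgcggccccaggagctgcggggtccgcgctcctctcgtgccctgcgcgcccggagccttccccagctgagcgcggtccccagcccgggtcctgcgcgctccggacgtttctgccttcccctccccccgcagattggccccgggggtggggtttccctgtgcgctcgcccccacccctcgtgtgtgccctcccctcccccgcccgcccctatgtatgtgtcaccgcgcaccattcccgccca
Hapln1: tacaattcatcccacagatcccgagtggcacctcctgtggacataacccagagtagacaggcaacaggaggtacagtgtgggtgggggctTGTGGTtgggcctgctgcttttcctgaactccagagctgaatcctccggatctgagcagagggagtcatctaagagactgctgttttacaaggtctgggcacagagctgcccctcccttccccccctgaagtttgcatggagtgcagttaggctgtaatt
Capitals mark matches to the letters ACAAAG or ACAATG (SOX type) and ACCACA or ACCGCA (RUNX type), searched on both strands. The SOX letters occur in neither window, nor in those of Cilp, Chad and Runx2. They occur in 25.2% of all 32851 windows of this length. The Hapln1 window holds ACCACA on the minus strand, 160 bases before the start, and the Acan window holds no match of either type. RUNX letters occur in 18.6% of all windows, and the Cilp, Chad and Runx2 windows held 1 match each. No pair of matches overlapped. A match is a description of these letters, not a site at which a factor was measured.

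Of Sox9 and Scx, the member transcription factors with a probe set, Sox9 had the wider spread in CF. It lay at 13.72 with the Ccrl2+ secretome, 10.81 with the Ccrl2- secretome and 11.69 in PBS in fibroblasts. In CM it lay at 7.87 with the Ccrl2+ secretome, 8.31 with the Ccrl2- secretome and 8.06 in PBS. All 3 CF values were above all 3 CM values, and the CF array with the Ccrl2+ secretome was the highest. The CF values exceeded 98.9% (Ccrl2+), 95.2% (Ccrl2-) and 97.1% (PBS) of the negative controls of their own arrays, and the CM values 77.5% (Ccrl2+), 82.2% (Ccrl2-) and 79.2% (PBS). On the CM arrays Sox9 was thus under the 95th percentile of the negative controls.

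Sox9 was 2.03 higher on the log2 scale with the Ccrl2+ secretome than in PBS in CF. Of 10042 genes past the floor in that comparison, 118 (1.18%) were at least as much higher, and 3.31% of the negative controls past the floor differed by as much in either direction. With the Ccrl2- secretome Sox9 was 0.88 below PBS (10.81 against 11.69), a 1.84-fold difference under the 2-fold mark. At least as low a value was found for 6.57% of genes, and 17.1% of negative controls differed by as much. Between the secretomes the difference was 2.91, the widest of any member in the CF comparisons. There 72 of 10144 genes (0.71%) were at least as much higher, and 0.964% of the negative controls differed by as much.

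Scx, the scleraxis gene, lay at 5.53 with the Ccrl2+ secretome, 4.82 with the Ccrl2- secretome and 5.75 in PBS in CF, and between 4.95 and 5.52 in CM. Its values lay under the floor on every array, so its difference of -0.93 for Ccrl2- over PBS in CF was not counted.

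Among the matrix genes, Matn2, which encodes the adaptor protein matrilin-2 of fibrillar networks, was high in fibroblasts. It lay at 10.85 with the Ccrl2+ secretome, 10.08 with the Ccrl2- secretome and 9.5 in PBS, in CF, against 6.33 with Ccrl2+, 6.81 with Ccrl2- and 6.1 in PBS in CM. The CF and CM values did not overlap, and in CF the PBS array was the lowest, whereas for Sox9 the Ccrl2- array was. The Ccrl2+ value alone passed the 95th percentile of its array's negative controls. Matn2 was 1.35 higher for Ccrl2+ over PBS in CF, 0.58 higher for Ccrl2- over PBS and 0.77 higher for Ccrl2+ over Ccrl2-. A difference of at least 1.35 in the same direction was found for 2.93% of genes, and 10.1% of negative controls differed by as much.

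Acan encodes aggrecan, the large proteoglycan that gives cartilage its resistance to compression. It lay at 6.86 with the Ccrl2+ secretome, 6.74 with the Ccrl2- secretome and 7.3 in PBS in CF, against 7.31 with Ccrl2+, 6.91 with Ccrl2- and 6.93 in PBS in CM. These values overlap between the cell types and lie near the middle of the negative controls, of which 55% (Ccrl2+), 50.4% (Ccrl2-) and 61.1% (PBS) were lower on the CF arrays. The CF array with the highest Sox9 value thus carried Acan within 0.12 of the array with the lowest Sox9 value.

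Hapln1 encodes the link protein that ties aggrecan and versican to hyaluronan. It lay at 4.95 with the Ccrl2+ secretome, 5.21 with the Ccrl2- secretome and 4.78 in PBS in CF, against 7.75 with Ccrl2+, 8.07 with Ccrl2- and 7.14 in PBS in CM. All CM values were above the floor and all CF values under it. Set against the floor, Hapln1 was lower in CF by at least 1.2 with the Ccrl2+ secretome, 1.52 with the Ccrl2- secretome and 0.59 in PBS, so in PBS the bound is under 2-fold. The CM values exceeded 75.6% (Ccrl2+), 79.7% (Ccrl2-) and 65.6% (PBS) of the negative controls and did not reach their 95th percentile.

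The other 4 matrix members did not reach the floor. Comp encodes the thrombospondin-family protein of cartilage and tendon and lay between 4.37 and 4.59 in CF and 3.99 and 4.12 in CM. Chad, the gene of the leucine-rich protein chondroadherin, lay between 3.07 and 3.38 in CF and 3.43 and 3.51 in CM. Cilp, which encodes a matrix protein of the cartilage intermediate layer that is also made by fibroblasts of the stressed heart, lay between 3.69 and 4.01 in CF and 2.83 and 3.32 in CM. Prg4 encodes lubricin, the lubricant of joint surfaces. It lay at 5.17 in CF with the Ccrl2+ secretome, 3.95 with the Ccrl2- secretome and 3.88 in PBS, and between 3.8 and 4.14 in CM. The Ccrl2+ value of Prg4 was the highest of the 6, and 25.7% of the negative controls on that array were lower. Its difference of 1.29 from PBS lies wholly under the floor and was not counted.

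By count, Sox9 and Matn2, 2 of the 3 members that passed the floor, reached 2-fold in CF for Ccrl2+ over PBS, both upwards, where 11% of all 10042 genes past the floor differed by 2-fold in either direction. The median over these 3 was 1.35, against -0.07 over all genes. For Ccrl2- over PBS 0 of 3 reached 2-fold, where 11% of 10057 genes did, and the median was -0.56 against -0.09. For Ccrl2+ over Ccrl2- 1 of 3 (Sox9) was at least 2-fold higher, where 18.6% of 10144 genes differed by as much, and the median was 0.77 against 0. Of the negative controls past the floor, 19.7% differed by 2-fold for Ccrl2+ over PBS, 13.1% for Ccrl2- over PBS and 19% for Ccrl2+ over Ccrl2-. A set of 3 genes is too small for a statement on the set, and the comparisons share arrays with each other.

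**Figure D2:**
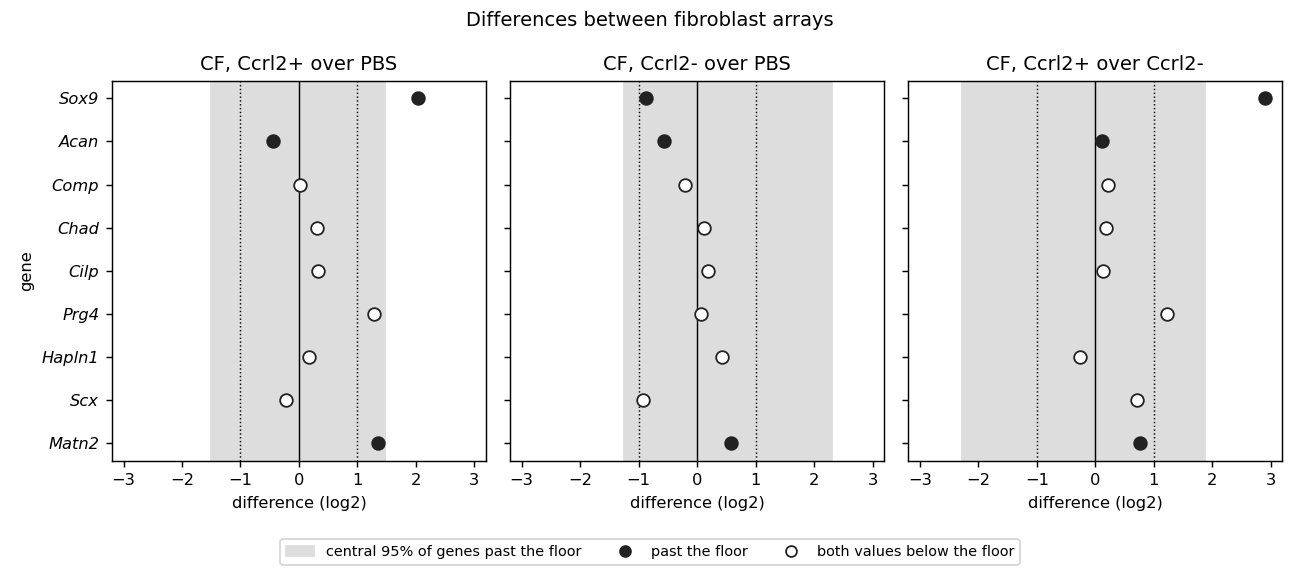
Log2 differences of the 9 members (rows) in the 3 fibroblast comparisons, 1 array against 1 array; filled points had a value past the floor and open points did not. The grey band is the central 95% of all genes past the floor (-1.5 to 1.47, -1.26 to 2.3 and -2.28 to 1.87 from left to right) and the dotted lines mark 2-fold; Sox9 lies outside the band at 2.03 in the left panel and at 2.91 in the right one.

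In cardiomyocytes 0 of 3 members past the floor reached 2-fold for Ccrl2+ over PBS, 0 of 4 for Ccrl2- over PBS and 0 of 4 for Ccrl2+ over Ccrl2-. The share of all genes at 2-fold was 0.839% for Ccrl2+ over PBS, 1.53% for Ccrl2- over PBS and 0.31% for Ccrl2+ over Ccrl2-. The median of the members was 0.38 for Ccrl2+ over PBS (-0.01 over all genes), 0.48 for Ccrl2- over PBS (-0.02) and -0.38 for Ccrl2+ over Ccrl2- (0). Matn2 passed the floor only on the CM array with Ccrl2- (6.81, against 6.33 with Ccrl2+ and 6.1 in PBS). Its entry follows from the difference that is measured. The 2 medians against Ccrl2- are raised in size by this and are no independent support. Hapln1 was higher with each secretome than in PBS, by 0.61 with Ccrl2+ and 0.93 with Ccrl2-. For Ccrl2- over PBS, 103 of 10054 genes (1.02%) were at least as much higher, whereas 19.8% of negative controls differed by as much.

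Between the cell types, Sox9 and Matn2 were at least 2-fold higher in CF than in CM under each treatment. Hapln1 was counted as lower each time, which made 3 of 4 members past the floor, but in PBS its bound of 0.59 is under 2-fold. Hapln1 passed the floor through CM alone each time, and Matn2 through CF alone with Ccrl2+ and in PBS. Their places in these counts follow from the side where they are high and are no independent support. The share of all genes at 2-fold was 31% with the Ccrl2+ secretome, 28% with the Ccrl2- secretome and 30.8% in PBS. Sox9 was higher in CF by 5.85 with Ccrl2+, 2.5 with Ccrl2- and 3.63 in PBS. Matn2 was higher in CF by at least 4.3 with Ccrl2+, by 3.27 with Ccrl2- and by at least 2.95 in PBS. The Sox9 gap was widest with the Ccrl2+ secretome, and the CM values themselves spanned 0.44. Over the 3 treatments, taken as blocks in a limma fit across 10779 genes, Sox9 averaged 12.07 in CF and 8.08 in CM, a difference of 3.99 ± 0.67 (SE, 3 arrays each, adjusted p = 0.0165). Without the PBS arrays its adjusted p was 0.075. Matn2 averaged 10.14 in CF and 6.41 in CM, 3.73 ± 0.31 apart (SE, limma adjusted p = 0.00261), and Hapln1 4.98 in CF and 7.65 in CM, -2.67 ± 0.19 apart (SE, limma adjusted p = 0.00182). Acan differed by -0.08 (95% interval -0.67 to 0.51, limma adjusted p = 0.804). All 3 CF values lay above the 3 CM values for Sox9 and Matn2 and below them for Hapln1. Of all genes in the fit, 28.8% had an adjusted p under 0.05, against 3 of the 4 members past the floor. Of these 3, Hapln1 entered the fit only through its CM values, the side where it was high. Its p-value and its place in the count are therefore no independent support. The fit takes the cell type difference as equal under every treatment, uses the CF values of Hapln1 although they lie under the floor, and measures only the spread between single arrays.

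Other cartilage matrix genes gave a mixed picture, with 5 of 22 past the floor in CF: Col11a1, Col11a2, Col9a3, Fmod and Prelp. Col2a1, the main collagen of cartilage, lay between 4.77 and 5.65 in CF, under the floor. Prelp, which encodes a leucine-rich proteoglycan, lay at 15.64 with Ccrl2+, 13.91 with Ccrl2- and 14.78 in PBS. Col11a1, a fibril-forming collagen chain of cartilage, lay at 12.24 with Ccrl2+, 10.91 with Ccrl2- and 11.45 in PBS. Both had the order of Sox9 over the 3 CF arrays and were at least 2-fold higher for Ccrl2+ over Ccrl2- (1.73 and 1.33). Fmod, the fibromodulin gene, differed from that order: 12.06 with Ccrl2+, 12.6 with Ccrl2- and 13.8 in PBS. It was at least 2-fold lower with each secretome than in PBS. By count, 0 were at least 2-fold higher and 1 lower for Ccrl2+ over PBS (median 0.79), 0 and 1 for Ccrl2- over PBS (-0.54), and 2 and 0 for Ccrl2+ over Ccrl2- (0.43). Col9a3 lay at 6.99 with Ccrl2+, 6.56 with Ccrl2- and 6.07 in PBS, so its entry against PBS follows from the difference that is measured. The medians against PBS are moved upwards by this and are no independent support. In these comparisons 11%, 11% and 18.6% of all genes past the floor differed by 2-fold in either direction. Their medians were -0.07, -0.09 and 0.

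Of 20 other regulators of cartilage formation, 18 were on the array and 8 past the floor in CF. Sox6, a partner of Sox9 in chondrocytes, lay at 8.2 with Ccrl2+, 8.44 with Ccrl2- and 9.2 in PBS, so it was 1 log2 unit lower for Ccrl2+ over PBS while Sox9 was higher. Sox5, the other partner, lay between 7.89 and 8.37. Pth1r, the receptor gene of parathyroid hormone-related protein, lay at 7.64 with Ccrl2+, 7.43 with Ccrl2- and 8.21 in PBS. Runx1, the paralog of Runx2 known from blood formation and early chondrocytes, lay at 7.8 with Ccrl2+, 11.6 with Ccrl2- and 9.07 in PBS. It was thus 1.27 lower than PBS with Ccrl2+ and 2.53 higher with Ccrl2-, the reverse of the order of Sox9. Cbfb, the gene of the partner subunit of the Runx factors, lay at 9.21 with Ccrl2+, 9.94 with Ccrl2- and 9.51 in PBS, under 2-fold. Prrx1, a homeobox factor of limb mesenchyme and of fibroblasts, lay at 13.29 with Ccrl2+, 14.48 with Ccrl2- and 13.12 in PBS and was 1.36 higher with Ccrl2- than in PBS. In all, 0 of 8 were at least 2-fold higher and 2 lower for Ccrl2+ over PBS (median -0.34), 2 higher and 0 lower for Ccrl2- over PBS (0.02), and 0 higher and 2 lower for Ccrl2+ over Ccrl2- (-0.2). The shares of all genes at 2-fold in either direction were 11%, 11% and 18.6% (medians -0.07, -0.09 and 0).

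Most bone genes lay under the floor on all 6 arrays, 11 of the 13 with a probe set, among them Sp7, Bglap and Ibsp. Of all 19505 genes, 10779 passed the floor on at least 1 array. The 2 past the floor were Sparc, a matrix glycoprotein gene of fibroblasts as well as bone, and Mgp, which encodes an inhibitor of calcification. Mgp lay at 15.7 with Ccrl2+, 13.75 with Ccrl2- and 14.46 in PBS in CF, 1.24 higher for Ccrl2+ over PBS and 1.95 higher for Ccrl2+ over Ccrl2-. In these comparisons 11% and 18.6% of all genes past the floor differed by 2-fold in either direction. Sparc lay between 18.68 and 19.02.

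Of 12 tendon and ligament genes on the array, 9 were past the floor in CF, and the tendon markers Tnmd and Mkx were not. Aspn, the asporin gene, lay at 14.62 with Ccrl2+, 11.05 with Ccrl2- and 12.65 in PBS, with differences from PBS of 1.97 with Ccrl2+ and -1.6 with Ccrl2-. Tnc, the tenascin-C gene, lay at 10.59 with Ccrl2+, 12.87 with Ccrl2- and 12.34 in PBS. Col14a1, a collagen that sits on fibril surfaces, lay at 8.65 with Ccrl2+, 10.89 with Ccrl2- and 10.47 in PBS. Aspn was highest with Ccrl2+, whereas Tnc and Col14a1 were lowest there. Egr1, an early growth response factor of tendon cells, lay at 10.58 with Ccrl2+, 12.49 with Ccrl2- and 11.51 in PBS. Egr2, its relative, lay at 6.29 with Ccrl2+, 8.26 with Ccrl2- and 6.73 in PBS, 1.53 higher with Ccrl2- than in PBS. Both had the reverse of the order of Sox9. By count, 2 of 9 were at least 2-fold higher and 2 lower for Ccrl2+ over PBS (median -0.44), 1 and 1 for Ccrl2- over PBS (0.22), and 3 and 4 for Ccrl2+ over Ccrl2- (-0.04). One of these 3, Angptl7, lay at 7.17 with Ccrl2+ and 6.14 with Ccrl2-, with a bound of 0.62, so that 2 were higher by the bound. Over all genes the shares at 2-fold in either direction were 11%, 11% and 18.6% (medians -0.07, -0.09 and 0).

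Of the genes listed for breakdown and turnover of the aggrecan and hyaluronan matrix, 13 passed the floor for Ccrl2- over PBS, of which 7 reached 2-fold upwards and 1, Timp3, downwards, with a median of 2.48. There 11% of all genes differed by 2-fold in either direction. The 7 were the protease genes Mmp3, Mmp13, Adamts4 and Adamts9, the hyaluronan synthase gene Has2, the hyaluronan receptor gene Cd44 and Timp1, the gene of a protease inhibitor. For Ccrl2+ over PBS 1 of 11 was higher and 1 lower (median 0.08, with 11% of all genes at 2-fold), and for Ccrl2+ over Ccrl2- 1 of 13 was higher and 7 lower (median -2.1, with 18.6% of all genes). In CF Has2 and Mmp13 passed the floor on the Ccrl2- array alone, which makes the 11 genes 13. Their entry follows from the difference that is counted, as does that of Adamts4 for Ccrl2+ over Ccrl2-. The counts and medians against Ccrl2- are raised in size by this and are no independent support. Mmp3, the stromelysin gene, had the widest difference of the list. It lay at 9.35 with Ccrl2+, 17.08 with Ccrl2- and 8.57 in PBS, 8.51 higher with Ccrl2- than in PBS. Adamts4, the gene of an aggrecan-cleaving protease, lay at 5.72 with Ccrl2+, 9.45 with Ccrl2- and 6.64 in PBS. Has2 lay at 5.36 with Ccrl2+, 9.12 with Ccrl2- and 5.23 in PBS, at least 2.57 higher with Ccrl2- than in PBS. Mmp13, the collagenase gene of cartilage, lay at 4.19 with Ccrl2+, 7.57 with Ccrl2- and 3.99 in PBS, at least 1.02 higher with Ccrl2- than in PBS. Adamts5, another aggrecanase gene, did not reach 2-fold in any CF comparison, with 15.58 (Ccrl2+), 14.77 (Ccrl2-) and 15.43 (PBS). Adamts1 was higher with Ccrl2+ at 14.45, against 12.52 with Ccrl2- and 13.07 in PBS. Htra1, a serine protease gene, was lower with Ccrl2+ at 12.41, against 12.97 with Ccrl2- and 13.73 in PBS.

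Close relatives of the members were also examined. Of 19 paralogs, 6 were past the floor in CF, and Sox8 and Sox10, the nearest relatives of Sox9, were not. Vcan, the versican gene of the aggrecan family, lay at 11.07 with Ccrl2+, 12.98 with Ccrl2- and 10.8 in PBS in CF. It was 2.18 higher for Ccrl2- over PBS, where Acan was 0.56 lower. Thbs4, a thrombospondin gene related to Comp, lay at 8.15 with Ccrl2+, 7.29 with Ccrl2- and 7.07 in PBS in CF, and between 14 and 14.25 in CM. Thbs3, another thrombospondin gene, lay at 5.85 with Ccrl2+, 6.66 with Ccrl2- and 7.42 in PBS in CF. Thbs2 lay at 15.07 with Ccrl2+, 15.11 with Ccrl2- and 16.03 in PBS in CF, under 2-fold. By count, 1 of 6 was at least 2-fold higher and 2 lower for Ccrl2+ over PBS (median -0.63), where the bound of Thbs3, -0.87, leaves 1 lower, 2 and 0 for Ccrl2- over PBS (0.36), and 0 and 2 for Ccrl2+ over Ccrl2- (-0.81). Over all genes 11%, 11% and 18.6% differed by 2-fold in either direction (medians -0.07, -0.09 and 0).

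**Figure D3:**
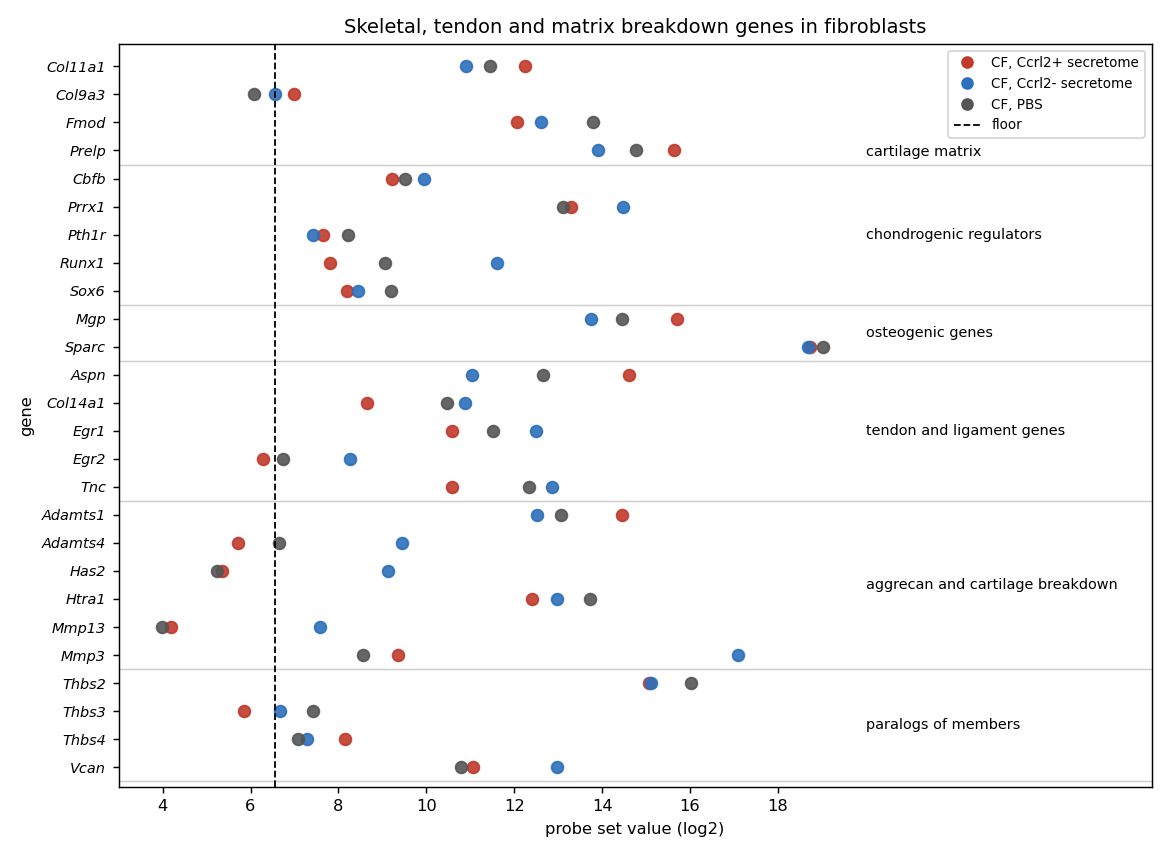
Log2 values on the 3 CF arrays (horizontal axis, 1 point per array) of 26 genes in 6 lists of cartilage, bone, tendon, matrix breakdown and paralog genes (rows), the 3 largest differences per list and comparison. Aspn, Mgp, Prelp and Col11a1 have the Ccrl2+ point on the right and the Ccrl2- point on the left, and Runx1 has them the other way round.

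The genes whose pattern was most like that of Sox9 were found by the root mean square distance between log2 values, each minus its mean over the 6 arrays, among 8989 genes with all CF values past the floor. The nearest were Abca6 (0.316), a lipid transporter gene, Spon1 (0.361), which encodes the matrix protein spondin 1, Tril (0.371), a Toll-like receptor accessory gene, Aspn (0.372) and Fam180a (0.505). Abca6 lay at 11.35 with Ccrl2+, 8.9 with Ccrl2- and 9.29 in PBS in CF, and between 5.13 and 5.6 in CM. For Matn2, a choice made after its values were seen, the nearest were Dclk1 (0.185), Col6a1 (0.22), Lpar1 (0.288), Col5a1 (0.345) and Mmp2 (0.38). The 6 arrays share 2 cell types, and the gap between them makes up much of each profile.

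**Figure D4:**
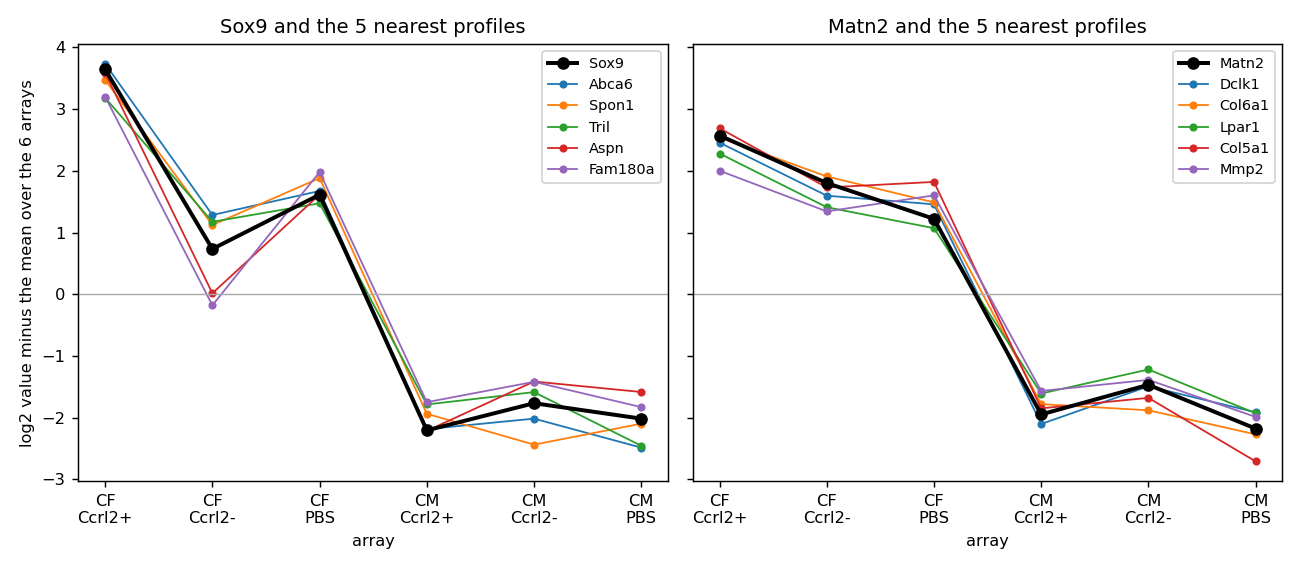
Log2 values minus each gene's mean over the 6 arrays (vertical axis) on each array (horizontal axis) for Sox9 (left) and Matn2 (right), drawn in black, with the 5 genes of nearest profile. Sox9 and its 5 nearest genes peak on the CF array with the Ccrl2+ secretome, with Sox9 at 13.72 there against 11.69 in PBS. The shared peak follows from choosing the genes by their nearness to Sox9 on these same arrays.

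Markers of other cell types were set beside the Sox9 difference, each gene against itself on the CF arrays. Of all genes past the floor, 11% differed by 2-fold in either direction for Ccrl2+ over PBS and 11% for Ccrl2- over PBS. The share was 18.6% for Ccrl2+ over Ccrl2-. Of the cardiomyocyte markers 4 of 5 were past the floor. For Ccrl2+ over Ccrl2-, where the Sox9 difference was widest, all 4 (Myh6, Tnnt2, Tnni3 and Actn2) were at least 2-fold higher, with a median difference of 1.54, and for Ccrl2+ over PBS 2 of 4 (Myh6 and Actn2), with a median of 1.18. For Ccrl2- over PBS 0 were higher and 1, Tnnt2, lower (median -0.14). Ryr2 stayed under the floor on the CF arrays. On the CM arrays, which also carried endothelial markers, Sox9 lay between 7.87 and 8.31. Whether cardiomyocyte transcripts in the CF cultures bear on the Sox9 difference was not tested. Of the 4 epicardial and mesothelial markers, Msln, the mesothelin gene, lay at 13.28 with Ccrl2+, 9.97 with Ccrl2- and 10.56 in PBS, the order of Sox9. For Ccrl2+ over PBS Msln was the 1 counted as higher, whereas Upk3b differed by 0.26, Wt1 by -0.12 and Krt19 by -0.69, with a median of 0.07. For Ccrl2+ over Ccrl2- Msln and Upk3b were higher (median 0.65). Of the 5 macrophage markers 0 reached 2-fold for Ccrl2+ over PBS (median 0.17). For Ccrl2- over PBS Adgre1 and Lyz2 were higher and Csf1r and C1qa lower (median 0.11), and Ptprc was under 2-fold. For Ccrl2+ over Ccrl2- C1qa was 2.7 higher and Adgre1 1.04 lower, and Ptprc, Csf1r and Lyz2 were under 2-fold (median 0.01). C1qa lay at 12.12 with Ccrl2+, 9.42 with Ccrl2- and 11.22 in PBS, the order of Sox9. Of the 5 fibroblast markers 0 reached 2-fold for Ccrl2+ over PBS (median 0.11) or for Ccrl2- over PBS (-0.18), and Tcf21 and Lum were higher for Ccrl2+ over Ccrl2- (median over all 5 -0.02). None of the endothelial markers Pecam1, Kdr, Cdh5 and Tie1 reached 2-fold in a CF comparison. Of the smooth muscle and pericyte markers, Cnn1 was lower with each secretome than in PBS, Acta2 was under 2-fold, and Myh11 and Rgs5 lay under the floor. The median difference of the 4 poly-A spike-in controls was 0.605 for Ccrl2+ over PBS, -0.31 for Ccrl2- over PBS and 0.89 for Ccrl2+ over Ccrl2-. For the 4 hybridisation controls it was 0.305, -0.065 and 0.33 in the same order. The part of these in the Sox9 and Matn2 differences was not tested.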

How the data were processed

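Biotin-labelled RNA was hybridised to Affymetrix arrays. The authors deposited log2 values per probe set, made in Affymetrix Expression Console according to the submitters' processing notes. The software version, the algorithm and the build are not given there. That the scale is log2 follows from the range of the values, and its base is not stated. The arrays had nearly equal distributions before deposit, so a shift of most genes would not be seen. Genes were not centred, and no scanner files were used.

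Of 28846 probe sets, 19572 had 1 symbol, 0 several and 9274 none. All 19572 Entrez identifiers matched RefSeq (GRCm38.p6). For 55 symbols with several probe sets the one of highest mean was kept, which gave 19505 genes. For each comparison the value of 1 array was subtracted from that of another. A gene counted when its higher value reached 6.55 and the difference 2-fold, and a value below that floor gives a bound against the floor. CF was set against CM over the 3 treatments with limma, treatment as a block, on genes past the floor on any array and with Benjamini-Hochberg adjustment over all of them. This test was added after the values were seen and has 2 residual degrees of freedom. Other comparisons have no p-value.

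Members and lists were chosen with earlier results of these data known. The genes named were all members, the 3 largest differences per other list and CF comparison, the cell type markers, and the 5 profiles nearest to Sox9, the member of largest range in CF. Named outside this rule, after their values were seen, were Col2a1, Col11a2, Sox5, Sox8, Sp7, Bglap, Ibsp, Tnmd, Mkx, Adamts5, Adamts9, Cd44, Timp1, Timp3, Angptl7 and the profiles nearest to Matn2. Alternatives were 1.5- and 3-fold, no floor, floors at the 75th percentile (10.14) and at the 95th percentile of negative controls (10.51), quantile normalization, removal of a loess trend (span 0.4), the mean of probe sets, and values raised to the floor. The counting and the limma step were checked with simulated arrays. Python 3.11.15, numpy 2.4.6, pandas 2.3.3, statsmodels 0.14.6, matplotlib 3.10.9, R 4.3.3 and limma 3.58.1 were used.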

Additional observations from a re-analysis of the deposited data

Results flagged for a closer look

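The Sox9 differences between treatments had opposite signs in the fibroblast and the cardiomyocyte cultures and lay at least 2-fold apart. The CM differences were small, so that the gaps come mainly from CF. With the Ccrl2+ secretome over PBS the difference was 2.03 in CF and -0.19 in CM, 2.22 apart. With the Ccrl2- secretome over PBS it was -0.88 in CF and 0.25 in CM, a gap of -1.13. For Ccrl2+ over Ccrl2- it was 2.91 in CF and -0.44 in CM, 3.35 apart. In CM, 74.2% of negative controls differed by as much for Ccrl2+ over PBS and 70.5% for Ccrl2- over PBS, so no change of Sox9 is shown there. Whether the differences themselves differ between the cell types was not tested, since each value comes from 1 array per group, and the CM values lay under the 95th percentile of the negative controls. These 3 contrasts share arrays. Groups of 1 array allow no check for a sample that stands apart from its group.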

How the results depend on the processing

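No paired analysis was possible because each group had 1 array and so 1 replicate number, except CF against CM paired by treatment. Each of the 32 differences of members past the floor moved by at most 0.13 under quantile normalization and loess, and none changed sign. The mean of probe sets could change no member, since each had 1 probe set. A shift was counted as such when it reached 0.274, the SD of the differences between the closest pair of arrays, both CM. The counts and medians of members depended on the floor, because 5 of 9 members lie under it on all arrays. With no floor the median of the members was 0.31 for Ccrl2+ over PBS in CF (1.35 with the floor), 0.07 for Ccrl2- over PBS (-0.56) and 0.22 for Ccrl2+ over Ccrl2- (0.77). It was 0.05 for Ccrl2- over PBS (0.48) and -0.01 for Ccrl2+ over Ccrl2- (-0.38) in CM, and 0.5, 0.1 and 0.37 for CF over CM with Ccrl2+, with Ccrl2- and in PBS (2.04, 1.17 and 1.89). With no floor Prg4 was added to 3 counts. They became 3 for Ccrl2+ over PBS in CF (2 with the floor) and 2 for Ccrl2+ over Ccrl2- in CF (1 with the floor). For CF over CM with Ccrl2+ the count became 4 (3 with the floor). With the floor at the 75th percentile, and likewise at the 95th percentile of negative controls, the medians were 1.69, -0.88 and 1.84 for the 3 CF comparisons in the same order and 5.19, 2.5 and 3.63 for CF over CM. Sox9 passed these floors on all CF arrays, Matn2 only on the CF array with Ccrl2+ (10.85). The values for Ccrl2- over PBS and for CF over CM with Ccrl2- and in PBS are thus those of Sox9 alone. The other medians cover Sox9 and Matn2, with Matn2 entering through the array where it is high. In CF over CM Sox9 too entered through CF alone, so these medians are no independent support. These floors left 2 members at 2-fold for CF over CM with Ccrl2+, 1 with Ccrl2- and 1 in PBS (3 each with the main floor), and no member past them within CM. In the limma fit of CF against CM, added after the values were seen, 3109 genes had an adjusted p under 0.05, 1129 without the PBS arrays, 1566 without Ccrl2+, 2636 without Ccrl2-, 3336 with no floor and 4002 with no block. Sox9 had an adjusted p of 0.075 without the PBS arrays, at a difference of 4.18, and between 0.00559 and 0.0299 in the other 4 alternatives. The Acan difference lay between -0.31 without the PBS arrays and 0.1 without the Ccrl2+ arrays (-0.08 with all). Matn2 and Hapln1 stayed under 0.05 in all 5. At 3-fold 1 member was counted for Ccrl2+ over PBS in CF in place of 2. At 1.5-fold the counts were 1 for Ccrl2- over PBS and 2 for Ccrl2+ over Ccrl2- in CF, and 1 for Ccrl2+ over PBS and 2 for Ccrl2- over PBS in CM. The last count includes Matn2, which in CM passed the floor with Ccrl2- alone.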
